A study of Mus musculus with 16 samples.

Results

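Aminoacyl-tRNA synthetases were described in a mouse liver progenitor (hepatoblast) line under sorafenib, a multikinase inhibitor used in hepatocellular carcinoma. Members were the rows of the gene count table named by an amino-acid letter followed by ars, ars1, arsl or ars2, with Farsa, Farsb and the 3 scaffold genes Aimp1, Aimp2 and Eef1e1. This gave 39 of 40840 genes, of which 19 encode cytosolic enzymes (no 2 at the end), 17 mitochondrial enzymes (a 2 at the end) and 3 scaffold proteins. All 39 passed the filter of at least 10 counts in total that left 20444 genes for testing. Eprs, the cytosolic glutamate and proline enzyme, is not matched by the naming rule and is described with the other charging genes. Gene symbols are those of the count table, in which Aars, for example, is the gene now named Aars1.

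Each synthetase attaches a particular amino acid to its own transfer RNAs, which then carry it to the ribosome. Cytosol and mitochondria mostly use separate enzymes, all encoded in the nucleus, although Gars and Kars serve both compartments. Several cytosolic enzymes sit in a multi-synthetase complex with Aimp1, Aimp2 and Eef1e1. Cytosolic synthetase genes are textbook targets of the transcription factor ATF4, which acts when amino acids run short or the endoplasmic reticulum or mitochondria are stressed.

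All 16 libraries came from cells of this line, labelled as lacking p53 and overexpressing Myc (Hepa p53 -/-,myc). Cells received vehicle (DMSO) for 48 hours, sorafenib for 48 hours, DMSO for 7 days or sorafenib for 7 days, with 4 replicates in each group. Total counts per library ranged from 16586254 to 30828427. The line is the same in all groups, and every library held between 1268 and 4799 counts on Trp53 and between 4226 and 17797 on Myc. Trp53 RNA was thus counted in every library, and RNA counts cannot show whether a working gene remains. Of 12 hepatoblast markers, Hnf4a had no count and Alb at most 1 count in any library, while Dlk1 averaged 32234 normalized counts with DMSO for 48 hours. The sum of the hepatoblast markers was mostly Dlk1 and ranged from 35062 to 36425 and from 12960 to 14892 normalized counts with DMSO and sorafenib for 48 hours, and from 18856 to 20684 and from 7092 to 7361 at 7 days. Of the 9 hepatoblast markers tested, 2 rose (Foxa2 by 1.77 and Sox9 by 1.64 on the log2 scale), 5 fell and 2 were not called at 48 hours, and 3 rose (these and Cdh1, by 1.39) and 6 fell at 7 days. Summed markers of fibroblasts ranged from 117228 to 119099 and from 125869 to 139288 at 48 hours, and from 90330 to 94977 and from 63581 to 65099 at 7 days. This sum was mostly Col1a1 and Col3a1. Of the 6 fibroblast markers, 2 rose and 4 fell at 48 hours, and 1 rose (Col1a1) and 5 fell at 7 days. Summed endothelial markers ranged from 58.7 to 100.05 and from 124 to 160 at 48 hours, and from 42.2 to 70.8 and from 205 to 236 at 7 days. Of the 5 endothelial markers, 4 were tested, of which Kdr and Stab2 rose, Tek fell and Pecam1 was not called at both times, and Cdh5 was under the filter. Kdr rose by 1.33 and 2.65 on the log2 scale. Of 7 leukocyte markers, 5 were under the filter. The part of these marker levels in the results was not tested. In replicate 2 of sorafenib for 48 hours, counts of genes beyond a place on chromosome 14 in genome order were lower by a log2 step of -0.72. Hars, Lars, Nars, Tars, Vars, Aars2, Hars2, Vars2 and Yars2 lie in that region, and their 48-hour values are therefore also given without this library. The part of these lowered counts in the values of members outside the region was not tested. Aars, Cars, Gars, Iars, Wars, Yars and Farsa, among others, had their highest 48-hour sorafenib value in this library, while Dars and Rars did not.

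Cytosolic synthetase RNAs were higher with sorafenib for 48 hours. Of the 19 cytosolic genes, 15 rose, 2 fell (Qars and Vars) and 2 were not called (Kars and Farsa), with a median log2 fold change of 1.05. Across all genes tested, 26.9% were called higher and 27.7% lower, with a median of -0.05. Of the 17 mitochondrial genes, 9 rose, 6 fell and 2 were not called, with a median of 0.12. All 3 scaffold genes rose. Calls were made at a false discovery rate under 0.05 with edgeR's quasi-likelihood test and Benjamini-Hochberg adjustment over all genes tested. Without replicate 2 of sorafenib for 48 hours, 15 cytosolic genes rose and 3 fell, and 8 mitochondrial genes rose and 7 fell. Shares of all genes called without that library are not given, here or below. The sorafenib libraries lay wholly above the DMSO libraries for 14 cytosolic and 9 mitochondrial genes, against 23.1% of all genes. Counts are shares of a library, so a change in the RNA of each cell cannot be told apart from a change in the share of cells that express a gene.

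Aars, the alanine enzyme, had 5466, 4851, 5182 and 4952 normalized counts in the 4 DMSO libraries at 48 hours, and 16456, 17629, 16973 and 16797 in the 4 sorafenib libraries. Every sorafenib library was above every DMSO library, a 3.32-fold rise (log2 fold change 1.73, SE 0.03, edgeR adjusted p = 6.24e-19). Gars, the glycine enzyme of both compartments, went from 6239, 6369, 6273 and 6025 to 18638, 20351, 18497 and 17555 normalized counts, a 3.01-fold rise. Cars, the cysteine enzyme, had 1869, 1807, 1975 and 1989 with DMSO and 5608, 6041, 5615 and 5623 with sorafenib, a 3.0-fold rise. The groups stood well apart for each of these genes.

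Lars and Nars, the leucine and asparagine enzymes, also rose, with a wider spread between the sorafenib libraries. Lars had 4469, 4427, 4494 and 4191 normalized counts with DMSO and 14376, 9419, 15071 and 14600 with sorafenib. Nars had 6091, 5952, 6180 and 5855 with DMSO and 18875, 12628, 20287 and 19629 with sorafenib. The second sorafenib value of each gene is from the library with lowered counts beyond chromosome 14. The log2 fold change of Lars was 1.61, or 1.74 without that library, and that of Nars 1.57, or 1.70 without it.

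The other cytosolic genes formed a graded series. Wars (tryptophan), Sars (serine) and Rars (arginine) rose by log2 fold changes of 1.51, 1.47 and 1.37. Iars (isoleucine), Yars (tyrosine) and Tars (threonine) rose by 1.16, 1.05 and 1.03, and Tars by 1.16 without replicate 2. Mars1, the methionine enzyme, and Farsb, a subunit of the phenylalanine enzyme, rose by 0.85 and 0.73. Smaller rises were measured for Hars (histidine), 0.29 or 0.43 without replicate 2, and Dars (aspartate), 0.22. The Hars groups overlapped when replicate 2 was kept, and Hars was called in 12 of the 16 fits that left out 1 library each. Kars, the lysine enzyme of both compartments, was at 9127 ± 122 with DMSO and 9060 ± 396 with sorafenib (SD, n = 4), a log2 fold change of -0.01 (SE 0.03, edgeR adjusted p = 0.796). Farsa, the other subunit of the phenylalanine enzyme, had a log2 fold change of -0.10 (edgeR adjusted p = 0.0511) while Farsb rose. Without replicate 2, Farsa was at -0.14 and called lower, with groups that did not overlap (edgeR adjusted p = 0.000121). Qars, the glutamine enzyme, fell by 0.32 on the log2 scale and Vars, the valine enzyme, fell by 0.22, or fell by 0.09 without replicate 2. Vars was called in 14 of the 16 fits that left out 1 library each.

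**Figure D1:**
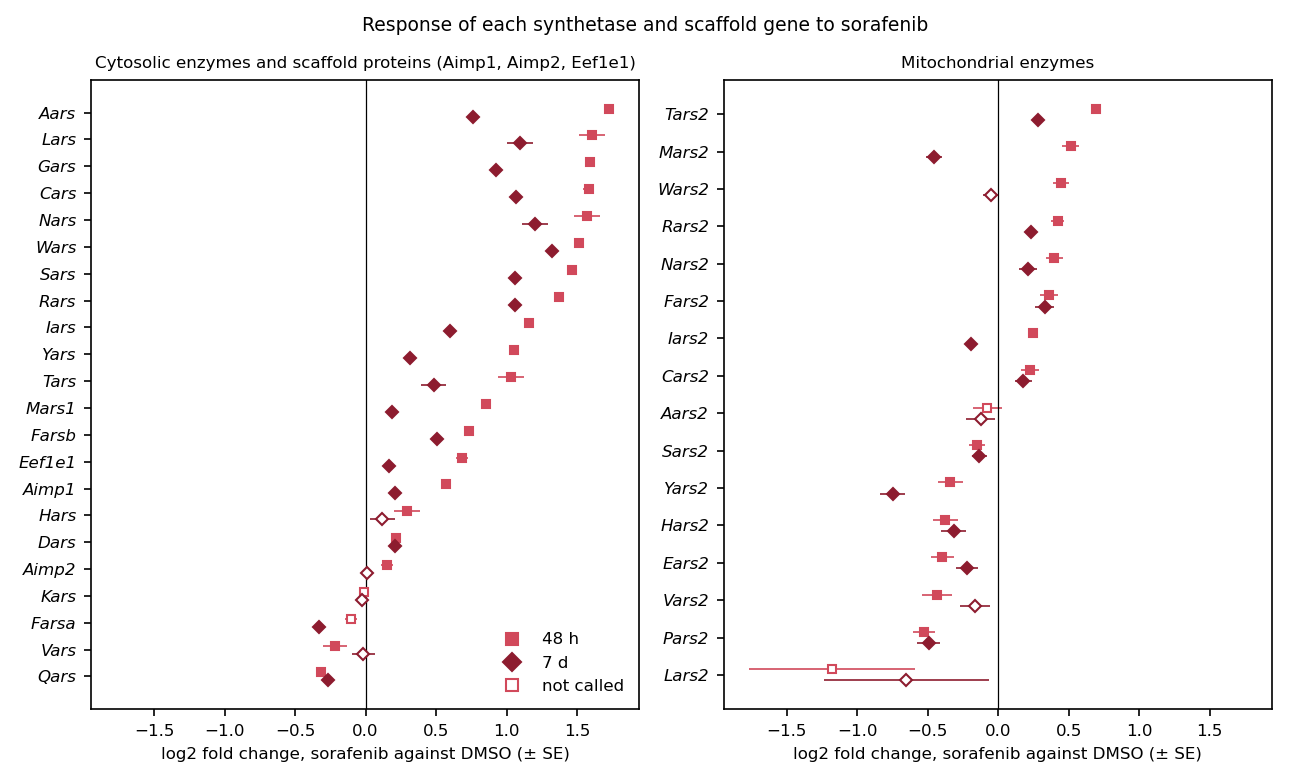
Log2 fold change of sorafenib against DMSO with its standard error for each cytosolic and scaffold gene (left) and 16 mitochondrial genes (right), at 48 hours (squares) and 7 days (diamonds), with open symbols for genes not called. Most cytosolic genes lie to the right of 0 at both times, up to 1.73 for Aars, while no called mitochondrial gene exceeds 0.69 (Tars2).

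Genes that rose were found both inside and outside the multi-synthetase complex. Of the 7 cytosolic enzymes of the complex (Dars, Iars, Kars, Lars, Mars1, Qars and Rars), 5 rose, 1 fell and 1 was not called, with a median of 0.85. Of the other 12 cytosolic genes, 10 rose, 1 fell and 1 was not called, with a median of 1.26. The scaffold genes Eef1e1, Aimp1 and Aimp2 rose by 0.68, 0.57 and 0.16 on the log2 scale. By structural class of the catalytic domain, 7 of 9 class I genes rose and 2 fell, and 8 of 10 class II genes rose and none fell. The difference between these subsets was not tested.

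Promoters are shown because most cytosolic genes rose at 48 hours, and the part of the motifs in these changes was not tested. RefSeq promoter sequences of GRCm38.p6, from 250 bases before to 50 after the start of transcription, were searched on both strands for TGATGNAA, the core of the element that ATF4 binds with a partner, and for CACGTG, an E-box of the kind that Myc binds. TGATGNAA was found in 5 of the 12 cytosolic genes counted here (Aars, Gars, Iars, Tars and Yars). It was found in none of 14 mitochondrial and none of 3 scaffold genes, and in 3.97% of 32851 promoters of the same length. CACGTG was found in 4 cytosolic genes (Aars, Farsb, Iars and Tars), in 1 mitochondrial gene (Ears2), and in 7.15% of all promoters. The motifs share no bases with each other in these promoters. The 5 genes with TGATGNAA had 48-hour log2 fold changes from 1.03 to 1.73, and the other 7 from -0.32 to 1.47 (Sars). The promoter of Eprs, which is not a member and rose by 1.04, held neither motif. Cars, Hars, Lars, Nars, Rars, Vars, Wars, Hars2 and Pars2 were among the genes not counted here. The ranges of the 5 and 7 genes thus leave out, among others, Lars (1.61), Nars (1.57) and Vars (-0.22). Of the 2 matches in Aars 1 is shown. A match of TGATGNAA in each of the 5 genes is printed in capitals with its neighbouring bases, 5′ to 3′ on the strand of the gene, where all but that of Yars read as the reverse complement.
Aars, chr8:111033840-111033869, plus strand: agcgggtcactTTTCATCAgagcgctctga
Gars, chr6:55037960-55037989, plus strand: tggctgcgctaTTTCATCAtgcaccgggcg
Iars, chr13:49682126-49682155, plus strand: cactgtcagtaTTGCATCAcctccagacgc
Tars, chr15:11399655-11399684, minus strand: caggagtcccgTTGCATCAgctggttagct
Yars, chr4:129189895-129189924, plus strand: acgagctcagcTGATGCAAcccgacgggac

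The matches shown had their first bases, counted from the start of transcription, at +10 in Aars, -30 in Gars, +8 in Iars, -15 in Tars and +4 in Yars. The 250 bases before the start are printed for Gars, whose match lies before the start, with the match in capitals.
Gars, chr6:55037751-55038000, plus strand: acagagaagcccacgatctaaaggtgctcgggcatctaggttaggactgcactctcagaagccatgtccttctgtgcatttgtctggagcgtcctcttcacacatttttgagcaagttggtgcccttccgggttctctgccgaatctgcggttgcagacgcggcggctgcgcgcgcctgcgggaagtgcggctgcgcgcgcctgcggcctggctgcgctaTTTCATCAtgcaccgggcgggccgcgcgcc

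The mitochondrial enzymes moved in both directions at 48 hours, and by less. Among the rises were those of Tars2 (0.69), Mars2 (0.51), Wars2 (0.44), Rars2 (0.42), Nars2 (0.40), Fars2 (0.36), Iars2 (0.24) and Cars2 (0.22) on the log2 scale. Without replicate 2 of sorafenib for 48 hours, Nars2 rose by 0.34 and Cars2 by 0.15. The falls were those of Pars2, Vars2, Ears2, Hars2, Yars2 and Sars2.

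Pars2, the mitochondrial proline enzyme, had 425, 472, 417 and 445 normalized counts with DMSO and 267, 313, 334 and 302 with sorafenib, a log2 fold change of -0.53 (SE 0.08, edgeR adjusted p = 6.65e-06). Vars2, the valine enzyme, had 1515, 1587, 1499 and 1564 with DMSO and 1239, 724, 1268 and 1298 with sorafenib, a log2 fold change of -0.44, or -0.28 without replicate 2. Ears2, the glutamate enzyme, had 381, 333, 351 and 336 with DMSO and 254, 304, 279 and 229 with sorafenib, a log2 fold change of -0.40. The groups did not overlap for any of the 3 genes. Hars2 fell by 0.38 on the log2 scale, or by 0.26 without replicate 2. Yars2 fell by 0.34, or by 0.24 without replicate 2, and its groups overlapped with and without that library. Sars2 fell by 0.15 (edgeR adjusted p = 0.0265), a call that was lost without replicate 2 of DMSO for 48 hours. Aars2 had a log2 fold change of -0.08 that became 0.05 without replicate 2 of sorafenib for 48 hours, neither of them called.

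At 7 days the cytosolic genes were still higher with sorafenib, by less. Of the 19 genes, 14 rose, 2 fell (Farsa and Qars) and 3 were not called (Hars, Kars and Vars), with a median log2 fold change of 0.51, while 28.9% of all genes were called higher and 27.9% lower with a median of 0.02. Of the mitochondrial genes, 5 rose, 7 fell and 5 were not called, with a median of -0.14. Aimp1 and Eef1e1 rose, by 0.21 and 0.17 on the log2 scale, and Aimp2 had a log2 fold change of 0.01. Sorafenib libraries lay wholly above DMSO libraries for 15 cytosolic and 5 mitochondrial genes, against 28.5% of all genes.

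Wars rose most at 7 days, from 2759, 2920, 2780 and 2771 normalized counts with DMSO to 7036, 7089, 7026 and 7000 with sorafenib, 2.51-fold (log2 fold change 1.32, SE 0.04, edgeR adjusted p = 3.61e-17). Nars went from 9412, 9690, 9438 and 9379 to 22046, 21780, 21897 and 21722, a 2.31-fold rise. Lars went from 6665, 6896, 6803 and 6681 to 14239, 14534, 14739 and 14432, a 2.14-fold rise. No sorafenib library of these 3 genes came near a DMSO library. Cars, Sars and Rars rose by 1.07, 1.06 and 1.06 on the log2 scale, and Gars and Aars by 0.92 and 0.76. Iars, Farsb and Tars rose by 0.60, 0.51 and 0.48. Yars, Dars and Mars1 rose by 0.31, 0.21 and 0.19. Farsa fell by 0.33 and Qars fell by 0.26 on the log2 scale. Hars, Vars and Kars had log2 fold changes of 0.12, -0.02 and -0.02. The Hars groups did not overlap at 7 days, and without replicate 2 of sorafenib for 48 hours Hars was called at the same size (0.12, edgeR adjusted p = 5.78e-05), which gave 15 cytosolic genes that rose.

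Yars2, the mitochondrial tyrosine enzyme, had the largest called fall at 7 days, from 1302, 1421, 1373 and 1338 normalized counts with DMSO to 762, 814, 900 and 752 with sorafenib (log2 fold change -0.75, SE 0.09, edgeR adjusted p = 3.15e-07). Pars2 had 309, 310, 373 and 331 with DMSO and 234, 246, 213 and 248 with sorafenib, a log2 fold change of -0.49. Mars2, the methionine enzyme, had 844, 885, 860 and 848 with DMSO and 615, 638, 644 and 602 with sorafenib, a log2 fold change of -0.46. The groups did not overlap for these 3 genes. Hars2, Ears2, Iars2 and Sars2 fell by 0.32, 0.22, 0.20 and 0.14 on the log2 scale. The call of Ears2 was lost without replicate 1 or 2 of DMSO or replicate 3 of sorafenib for 7 days, and that of Sars2 without replicate 3 of DMSO or replicate 2 or 3 of sorafenib. Fars2, Tars2, Rars2, Nars2 and Cars2 rose by 0.33, 0.28, 0.23, 0.21 and 0.18. Vars2, Aars2 and Wars2 had log2 fold changes of -0.17, -0.13 and -0.05 and were not called.

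**Figure D2:**
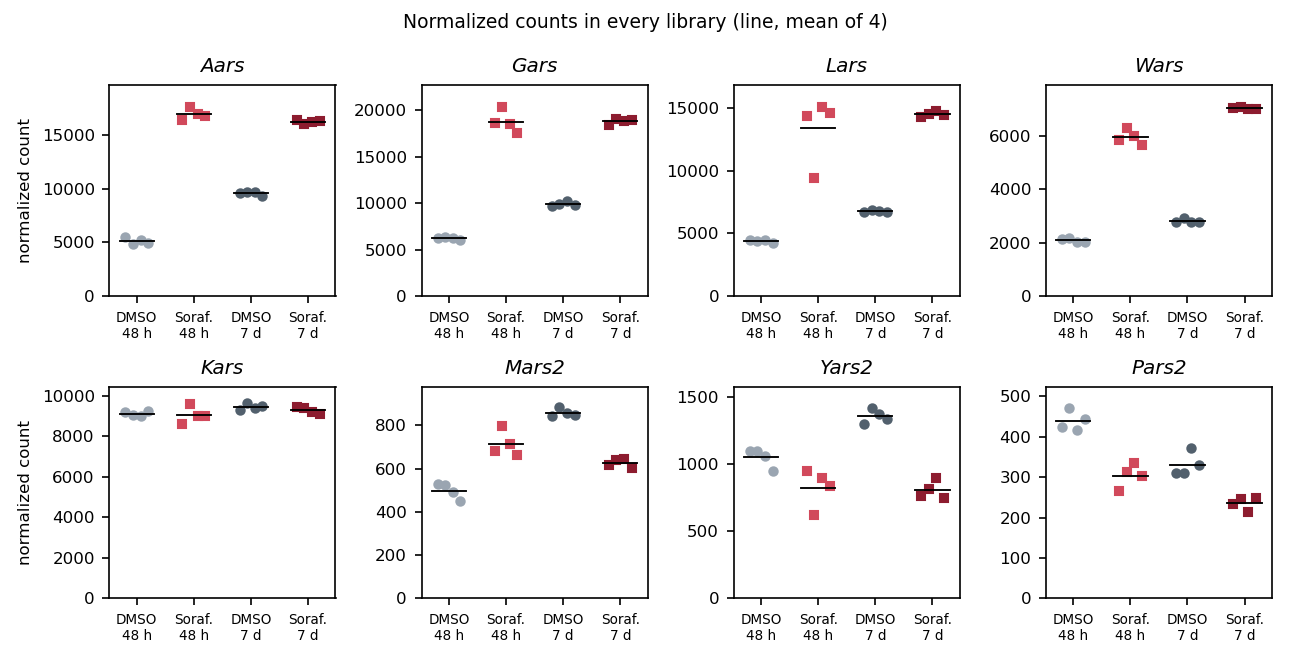
Normalized counts of 5 cytosolic genes (Aars, Gars, Lars, Wars and Kars) and 3 mitochondrial genes (Mars2, Yars2 and Pars2) in every library of the 4 groups, with the group mean as a line. With sorafenib, Aars averaged 16964 at 48 hours and 16245 at 7 days, while with DMSO it averaged 5113 and 9578; Kars stayed between 8625 and 9629 in all libraries.

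The response was smaller at 7 days than at 48 hours for most cytosolic genes. The interaction of treatment and time, the log2 fold change at 7 days minus that at 48 hours, was below 0 and called for 14 of the 19 cytosolic genes and above 0 and called for none, with a median of -0.36. With library sizes scaled by total counts only, 11 were called below 0 and 2 above (Qars and Vars), and when only genes with 10 counts in every library were tested, 13 below and 1 above (Qars). Among all genes, 21.3% were called below 0 and 15.5% above in the main fit, and shares for the other settings are not given. Of the mitochondrial genes, 7 were called below 0 and none above, and of the scaffold genes 2 were called below 0 and none above. The largest interaction terms were those of Mars2 (-0.97, SE 0.08, edgeR adjusted p = 1.02e-08), Aars (-0.97, SE 0.05, edgeR adjusted p = 3.43e-12) and Yars (-0.74, SE 0.04, edgeR adjusted p = 6.6e-11).

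In Yars, the 48-hour DMSO libraries held 2819, 2730, 2744 and 2738 normalized counts, and the sorafenib libraries 5496, 6056, 5609 and 5752. At 7 days, the DMSO libraries held 4296, 4397, 4413 and 4230, and the sorafenib libraries 5440, 5307, 5373 and 5422. The sorafenib values of the 2 times lay close together, and the DMSO values were higher at 7 days. Aars showed the same arrangement, with 9603, 9713, 9662 and 9333 normalized counts with DMSO for 7 days and 16387, 16068, 16229 and 16298 with sorafenib. Mars2 turned from a rise to a fall. It had 529, 525, 490 and 452 normalized counts with DMSO and 681, 797, 716 and 661 with sorafenib at 48 hours, and its DMSO values at 7 days were above all of these.

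The vehicle libraries alone moved with time. Between DMSO for 48 hours and DMSO for 7 days, 15 cytosolic genes rose, 1 fell (Qars) and 3 were not called, with a median log2 fold change of 0.47. All 3 scaffold genes rose, and 6 mitochondrial genes rose and 4 fell. Of all genes, 23.9% were called higher and 25.5% lower at 7 days. The largest rises were those of Aars (0.91), Tars (0.82) and Mars2 (0.79). Vars2 and Pars2 were among the genes that fell, by 0.47 and 0.41 on the log2 scale. Between sorafenib for 48 hours and sorafenib for 7 days, 5 cytosolic genes rose, 4 fell and 10 were not called, with a median of 0.04, while 17.5% of all genes were called higher and 22.3% lower. In the same comparison 1 mitochondrial gene rose (Sars2) and 7 fell. Without replicate 2 of sorafenib for 48 hours, 8 cytosolic genes rose and 4 fell, and 2 mitochondrial genes rose and 11 fell. The shares of all genes given here are from the fit with that library, and those without it are not given. These comparisons share their groups with the treatment comparisons and are no further evidence for them.

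Levels were compared between genes per kilobase of the canonical transcript of each gene. With DMSO for 48 hours, normalized counts per kilobase of the cytosolic genes ranged from 283 (Cars) to 3827 (Kars). Those of the mitochondrial genes other than Lars2 ranged from 44.2 (Mars2) to 646 (Iars2). Cars was the only cytosolic gene below Iars2 on this scale. With sorafenib for 48 hours the order of the cytosolic genes was different, with Gars (7727), Nars (6504) and Rars (4850) at the top and Cars (848) and Qars (1179) at the bottom. Kars, with 3799 per kilobase, had passed from the first place to the fourth.

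As a share of all counts, the 19 cytosolic genes took 0.357 ± 0.008% with DMSO and 0.668 ± 0.015% with sorafenib at 48 hours, and 0.451 ± 0.009% and 0.714 ± 0.003% at 7 days (SD, n = 4). The mitochondrial genes other than Lars2 took 0.0611 ± 0.0012% and 0.0639 ± 0.0007% at 48 hours, and 0.0597 ± 0.0012% and 0.0561 ± 0.0003% at 7 days. The mean log2 level of the cytosolic genes minus that of the mitochondrial genes, taken within each library, was 2.17 ± 0.07 with DMSO and 3.06 ± 0.04 with sorafenib at 48 hours, and 2.61 ± 0.09 and 3.26 ± 0.04 at 7 days. Leaving out Lars2, it was 2.45 ± 0.03 and 3.29 ± 0.02 at 48 hours and 2.84 ± 0.03 and 3.49 ± 0.01 at 7 days. The libraries of the 4 groups did not overlap on the last scale.

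**Figure D3:**
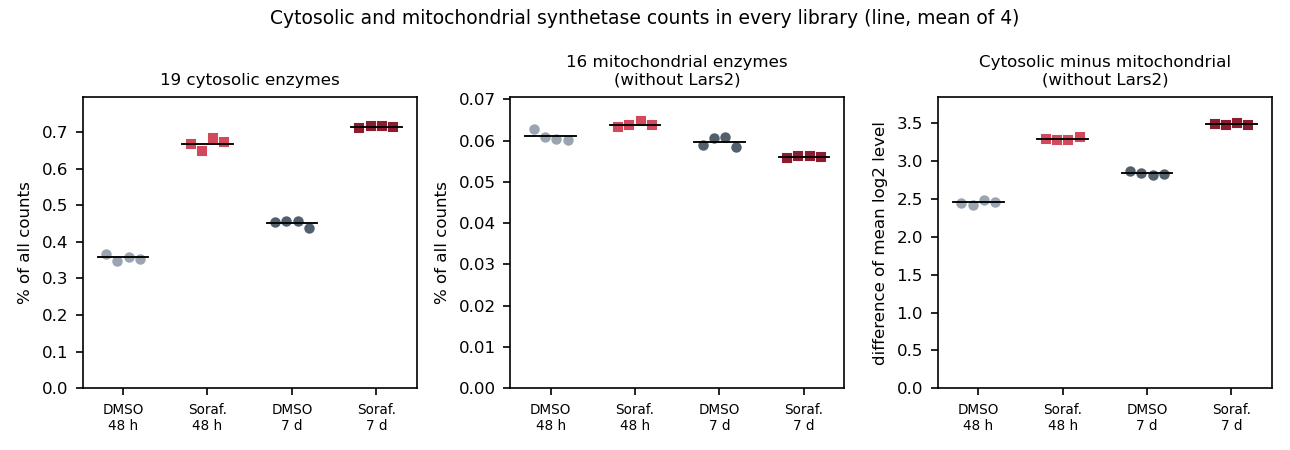
Percent of all counts on the 19 cytosolic genes (left) and on 16 mitochondrial genes without Lars2 (middle), and the mean log2 level of cytosolic minus mitochondrial genes (right), in every library with the group mean as a line. The cytosolic share goes from 0.357 to 0.668% at 48 hours, while the mitochondrial share stays between 0.0557 and 0.0648% in all libraries.

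The ratio of a cytosolic gene to the mitochondrial gene for the same amino acid was taken in each library for 15 pairs, with Farsa as the partner of Fars2. At 48 hours, the log2 ratio was higher in all sorafenib libraries than in all DMSO libraries for 12 pairs, lower for 1 (Farsa/Fars2), and overlapping for 2, among them Tars/Tars2. At 7 days it was higher without overlap for 13 pairs, lower for Farsa/Fars2 and overlapping for Lars/Lars2. Farsb, the other subunit of the cytosolic enzyme, rose by 0.73 and 0.51 on the log2 scale at the 2 times and Fars2 by 0.36 and 0.33, so that the direction of this pair turns on the subunit taken. The median difference in log2 ratio was 0.95 at 48 hours and 0.83 at 7 days. Each pair without overlap had a two-sided exact permutation p = 0.0286, the smallest that 4 libraries against 4 allow, not adjusted over the 15 pairs. The ratios are made of the counts already compared gene by gene, and no share for pairs of other genes is given. Without replicate 2 of sorafenib for 48 hours, 13 pairs were higher and 1 was lower at that time.

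The ratios that moved most at 48 hours were those of Lars/Lars2, Aars/Aars2 and Sars/Sars2. The log2 ratio of Aars to Aars2 was 3.04 ± 0.08 with DMSO and 4.89 ± 0.38 with sorafenib, a difference of 1.85 (SE 0.20), or 1.66 without replicate 2. Aars2 itself had 623, 598, 620 and 640 normalized counts with DMSO and 666, 401, 643 and 618 with sorafenib, groups that overlapped. At 7 days Aars2 had 590, 645, 682 and 714 with DMSO and 659, 611, 574 and 574 with sorafenib, which overlapped as well. Sars had 4900, 4751, 4737 and 4698 normalized counts with DMSO and 12766, 13839, 13312 and 12898 with sorafenib at 48 hours, while Sars2 had 498, 528, 513 and 506 and then 476, 463, 437 and 466. The log2 ratio of Sars to Sars2 went from 3.22 ± 0.06 to 4.84 ± 0.09, a difference of 1.62 (SE 0.05). At 7 days Sars had 5695, 5730, 5653 and 5688 with DMSO and 11789, 11856, 11987 and 11789 with sorafenib. The smallest differences at 48 hours among pairs without overlap were those of Vars/Vars2 (0.24) and Mars1/Mars2 (0.34).

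**Figure D4:**
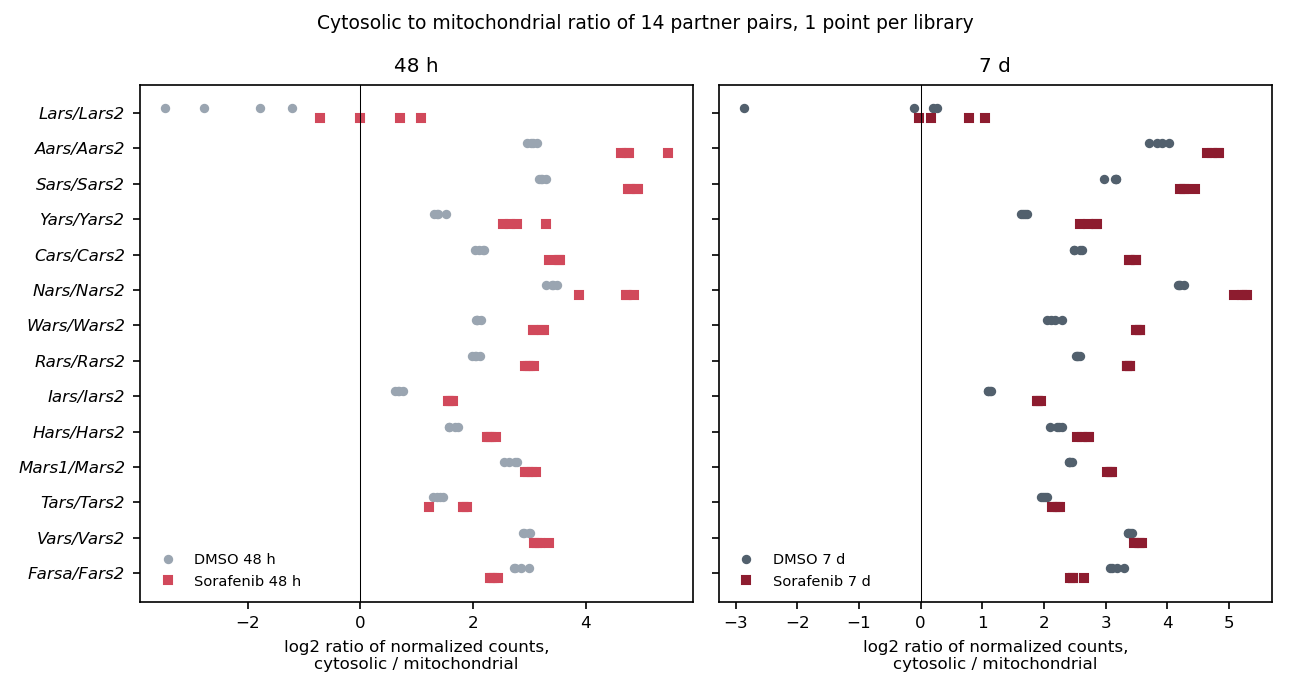
Log2 ratio of normalized counts of a cytosolic gene to its mitochondrial partner for 14 of the 15 pairs at 48 hours (left) and 7 days (right), with 1 point per library, circles for DMSO and squares for sorafenib. The sorafenib points lie to the right of the DMSO points in most pairs at both times, and to the left in Farsa/Fars2 at both.

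Lars2, the mitochondrial leucine enzyme, stood apart from the other members by the spread between its replicates. It had 10309, 48889, 30903 and 14455 normalized counts with DMSO for 48 hours and 14525, 15431, 7185 and 8990 with sorafenib. At 7 days it had 7187, 5719, 5954 and 48755 with DMSO and 14550, 8417, 7187 and 12893 with sorafenib. The groups overlapped at both times, and the log2 fold changes of -1.18 (SE 0.59) and -0.65 (SE 0.58) were not called (edgeR adjusted p = 0.0997 and 0.363). Without replicate 2 of sorafenib for 48 hours the 48-hour value was -1.36 and called, and without replicate 4 of DMSO for 7 days it was -1.18 and called. The 7-day value turned to 0.77 without replicate 4 of DMSO for 7 days.

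Across the 16 libraries, Lars2 rose and fell with short structural RNAs. In description, the correlation of log2 normalized counts (Pearson's r over 16 libraries, which share groups) was 0.97 with Rpph1, the RNA of ribonuclease P, 0.96 with Rn7sk and 0.93 with Rmrp. Rpph1 had 973, 783 and 793 normalized counts in the 3 libraries with the highest Lars2, and from 69.9 to 307 in the others. The r of Lars2 with the mitochondrial ribosomal RNAs mt-Rnr1 and mt-Rnr2 was 0.75 and 0.78. With the 38 other members r ranged from -0.47 (Tars) to 0.39 (Pars2). The part of these RNAs in the Lars2 counts was not tested.

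**Figure D5:**
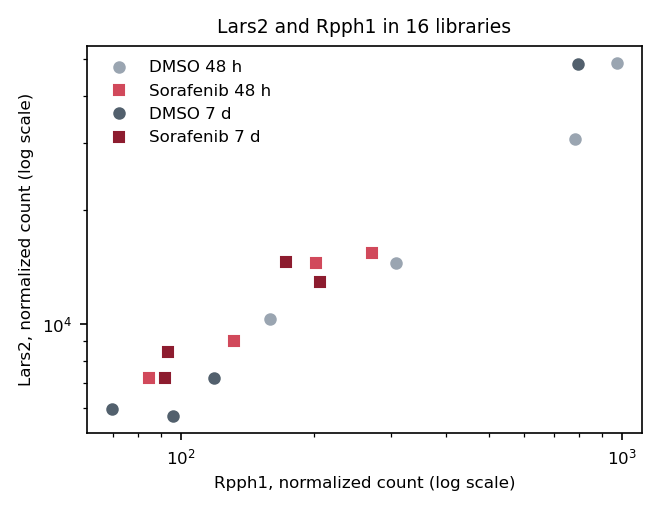
Normalized counts of Lars2 against those of Rpph1 in 16 libraries, both axes on a log scale, coloured by group. Points of all 4 groups fall along a common line, and 3 DMSO libraries, with Rpph1 from 783 to 973, hold the highest Lars2 values.

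Some members share transcript bases with a coding gene on the opposite strand, and the strand setting of the counting is not given in the sources used here. In GRCm39 the share of canonical transcript bases was 64.6% for Aimp2 (with Eif2ak1), 50.3% for Yars2 (with Dnm1l), 38.4% for Iars2 (with Rab3gap2), 10.95% for Ears2 and 10.5% for Cars2. Hars and Hars2 lie head to head and share 9.80 and 5.84% of their bases. Without strand, counts of these genes and their partners cannot be told apart in the shared bases. Of the genes with the largest changes, Aars (chr8:111754391-111784296), Gars (chr6:55014927-55061231), Cars (chr7:143107440-143153828), Wars (chr12:108825955-108860188) and Pars2 (chr4:106508266-106512483) share none.

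Other genes that serve charged tRNAs were counted by list. Of 15 charging partners (amidotransferase subunits, editing enzymes, tRNA export and peptidyl-tRNA hydrolases, with Eprs), 10 rose, 4 fell and 1 was not called at 48 hours, with a median log2 fold change of 0.50, and 8 rose, 3 fell and 4 were not called at 7 days. Of all genes tested, 26.9% were called higher and 27.7% lower at 48 hours, and 28.9 and 27.9% at 7 days. Dtd1, which removes D-amino acids from tRNA, fell most, by 0.66 and 0.63. Eprs rose by 1.04 and 0.65, from 13976 ± 344 to 28824 ± 1076 normalized counts at 48 hours and from 16649 ± 116 to 26063 ± 457 at 7 days (SD, n = 4).

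Elongation factors of the cytosol and translation factors of mitochondria are set against the same shares of all genes (26.9% higher and 27.7% lower at 48 hours, 28.9 and 27.9% at 7 days). Of 7 genes listed for cytosolic elongation, 1 rose, 3 fell and 3 were not called at 48 hours. The gene that rose was Eef2k (by 0.28), the kinase of elongation factor eEF2 and not itself an elongation factor. Eef1b2 fell most, by 0.13 on the log2 scale. At 7 days 1 rose (Eef2k, by 0.65), 4 fell and 2 were not called, with Eif5a falling most, by 0.46. Of 11 mitochondrial translation factors, 6 rose, 2 fell and 3 were not called at 48 hours, and 3 rose, 5 fell and 3 were not called at 7 days. Mtres1 (0.54) and Guf1 (0.32) rose most at 48 hours and 7 days, and Tufm, the mitochondrial elongation factor Tu, fell most, by 0.35 and 0.56 on the log2 scale.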

How the data were processed

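The authors deposited raw counts of reads per gene (Illumina Stranded mRNA Prep, NovaSeq), without normalization or pooling. The submitters' processing notes name STAR 2.7.1a, featureCounts 2.0.6 and GRCm39. The annotation is not given in the sources used here. Genes with fewer than 10 counts in total were removed (20396 of 40840). Counts of 16 libraries were tested with edgeR 4.0.16 in R 4.3.3 (TMM, quasi-likelihood test, 1 coefficient per group, no block), with Benjamini-Hochberg adjustment at 0.05. Normalized counts are counts divided by library size and TMM factor, relative to their geometric mean. Where nothing says that replicates were separate cultures, p-values measure the spread between samples only. The steps were tested on simulated data. Per-library values were given for the 5 largest rises and 3 largest falls called at 48 hours, the 3 largest rises and falls called at 7 days, the 3 largest interaction terms, and the 3 pairs whose ratio moved most at 48 hours. Some genes are not reported here. Members and lists were chosen with earlier results of these data known. Alternatives were DESeq2 1.42.0, its size factors, total counts only, other filters, a fold threshold, only the groups compared, a replicate block, and each library left out.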

Additional observations from a re-analysis of the deposited data

Results flagged for a closer look

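Genes whose per-library values are given were screened for a library that stood apart from the other 3 of its group, which chance alone flags in about 1 of 20 groups. In replicate 2 of sorafenib for 48 hours, Lars (9419 normalized counts) and Vars2 (724) stood below the other 3 and Cars (6041) above them. Nars (12628), Aars2 (401) and Yars2 (621) also had their lowest value of the group in that library, although the screen did not flag them. Lars, Vars2, Nars, Aars2 and Yars2 lie in the region in which that library had lower counts, and Cars does not. Aars, Gars, Iars, Wars and Yars, which also lie outside the region, had their highest 48-hour sorafenib value in that library as Cars did. Lars2 stood apart in replicate 4 of DMSO for 7 days (48755), Vars2 in replicate 4 of sorafenib for 7 days (1035), Wars in replicate 2 of DMSO for 7 days (2920) and Yars in replicate 1 of DMSO for 48 hours (2819).

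The response to sorafenib differed between the 2 times, by edgeR's interaction term (log2 fold change at 7 days minus that at 48 hours), for Mars2 (-0.97), Aars (-0.97), Yars (-0.74), Gars (-0.67), Cars (-0.52), Lars (-0.51), Sars (-0.41), Yars2 (-0.41), Nars (-0.36) and Wars (-0.19). Without replicate 2 of sorafenib for 48 hours, the terms of Lars, Nars and Yars2 were -0.64, -0.50 and -0.51, all called (edgeR adjusted p = 8.85e-21, 1.79e-16 and 3.25e-08). Over the 16 fits that left out 1 library each, the term of Nars was called in 6 and that of Yars2 in 13, and those of the other 8 genes named here in all 16.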

How the results depend on the processing

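When calls also had to reach a log2 fold change of 1 in size, 11 cytosolic and 0 mitochondrial genes were called at 48 hours, 6 and 0 at 7 days, and 0 of either kind in the interaction and in both comparisons of times. Shares of all genes called are not given for the settings of this section, so its counts cannot be set against them. Over the fits that left out 1 library each, the number of mitochondrial genes called ranged from 4 to 7 in the interaction (4 without replicate 4 of DMSO for 48 hours or replicate 3 of sorafenib for 48 hours) and from 7 to 13 between sorafenib for 7 days and for 48 hours (13 without replicate 2 of sorafenib for 48 hours). The 48-hour log2 fold change of Aars2 ranged from -0.17 to 0.0495, and the 7-day value of Lars2 from -0.94 to 0.77. With a replicate block the latter was 0.0244. Same-numbered libraries did not deviate together (correlations from -0.05 to 0.13 between treatments and from -0.18 to 0.06 between times), and not every library correlated best with its own number. The block gave 17 cytosolic and 14 mitochondrial calls at 48 hours and 16 and 11 at 7 days. In the interaction, total counts only gave 11 cytosolic genes below 0 and 2 above. The calls of Sars2 at both times were lost with the block and with no filter on low counts, and that at 7 days also when only genes with 10 counts in every library were tested. The 7-day calls of Ears2 and Sars2 were lost with total counts only and in 3 of the fits that left out 1 library each. With only the groups compared in the model, Lars2 was called at 48 hours (-1.21) and Aars2 (-0.13) and Vars2 (-0.17) at 7 days, the last 2 also without replicate 2 of sorafenib for 48 hours. The cause of these changes was not tested. Leaving Lars2 out of the ratio of cytosolic to mitochondrial levels, a choice made after seeing the data, gave differences of 0.83 at 48 hours and 0.65 at 7 days, against 0.90 and 0.65 with it. Counting error weighs most on the mitochondrial genes other than Lars2, the lowest of which, Pars2, held 213 normalized counts in 1 library.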
